A study of Mus with 4 samples.

Results

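The genes described here are Haus1 to Haus8, which encode the 8 subunits of the augmin complex, and Myo9b, the neighbour of Haus8 on chromosome 8. They are 9 of the 21883 protein-coding genes placed on the main mouse chromosomes. They were picked by name, and because of a strong summit of TBX3 signal already known at the end of Haus8, so the values at that summit and the counts that contain it are a description of the choice. ChIP-Seq was performed on mouse primary hepatocytes with 2 TBX3 ChIP libraries, immunoprecipitated with an anti-HA antibody, and 2 Input libraries. All 4 libraries came from cells carrying pT2-SVNeo-EF1-eGFP-P2A-Tbx3-HA, a transposon in which the EF1 promoter drives eGFP together with HA-tagged TBX3, delivered with the Sleeping Beauty transposase and selected with G418. The antibody therefore reported overexpressed, tagged TBX3 and not the endogenous protein, and no library of cells without the construct was analysed here. No age, sex or strain of the mice stands in the labels used here. A single track of MACS2 scores was deposited, with no value per library, so no score below carries a replicate error and no test between groups was possible. The label of primary hepatocytes could not be checked against marker genes, because chromatin reads do not measure expression.

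Augmin binds to the side of an existing microtubule and recruits the γ-tubulin ring complex there, so that a new microtubule branches off. Through this branching it increases the number of microtubules in the mitotic spindle and is needed for robust chromosome segregation. Its subunits form 2 modules. HAUS2, HAUS6, HAUS7 and HAUS8 make up the module that meets the microtubule, and HAUS1, HAUS3, HAUS4 and HAUS5 make up a long module of coiled coils. MYO9B is an unconventional myosin, a motor that moves along actin, and carries a domain that inactivates the small GTPase RhoA. The study asked which genes TBX3, a T-box transcription factor that represses transcription, occupies in hepatocytes, in connection with the mitotic inhibitors E2f7 and E2f8. Hepatocytes often become polyploid by replicating DNA without completing mitosis.

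Each score is a p-value on the −log10 scale, which compares how many ChIP reads cover a base with how many Input leads one to expect there. The RefSeq GRCm38.p6 gene table used here gives no strand, so both ends of every gene were searched. The promoter score of a gene is the maximum found at most 1 kb from one of them. It can therefore lie at the end where transcription stops, for Haus7 as for any other gene. A called region consists of bases that score 5 or more, allows gaps no longer than 30 bp and is at least 200 bp long. The reads behind a score were inferred. At the genome-wide expected level of 2.43 reads, 5 reads give a score of 1.42, 8 give 3.02, 11 give 5.01 and 37 give 31.06. Low scores are thus steps of 1 read, and many genes share the same value.

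One called region was found among the 9 genes, and it lay where Haus8 and Myo9b overlap. Haus8 (gene 76478) is annotated from 71250597 to 71272627 on chromosome 8 and Myo9b (gene 17925) from 71272576 to 71360713, so that the higher-coordinate end of Haus8 and the lower-coordinate end of Myo9b share 52 bp. The region spans 71272301 to 71272682, a length of 382 bp. Of its bases, 275 (72.0%) are in Haus8 only, 52 are in both genes and 55 are in Myo9b only. The gene table does not give exons, so these bases are not assigned to exons or introns. Its summit score of 31.06 was the sixth highest of 125 called regions, and it was reached over 6 bp from 71272514 to 71272519. This summit lies 111 bp inside Haus8 and 60 bp before the end of Myo9b. The score was 19.68 at the end of Myo9b and 14.54 at the end of Haus8, so it fell from the summit across the overlap of the genes.

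The summit score corresponds to 37 inferred ChIP reads (exact Poisson 95% interval 26.1 to 51.0, counting error only) against 2.43 expected, a ratio of 15.2. This expected number is the genome-wide level and not a local Input level. No source used here says whether both mates of a pair were counted. If they were, dividing reads and expected level by 2 would give 18 reads and a score of 15.96. On chromosome 8, 790 stretches of 1 read lay between bases with none. The highest pileup at the ends was 1 read in 1 protein-coding gene and 2 reads in 25, at the genome-wide level. Whether reads came in pairs was not tested. The interval on 37 takes every read as independent although the treatment of duplicates is not given. It would be too narrow if both mates were counted, as would the intervals given for the other genes. The pileup stayed at 19 reads or more for 261 bp, from 138 bp below the summit to 122 bp above it. It returned to 0 reads at both sides, bounding an island of 790 bp with 64 inferred read starts. The slope was longer towards the inside of Haus8, where the island reached 506 bp below the summit, than towards Myo9b, where it reached 283 bp above. The expected level ranged from 2.43 to 3.34 reads in the region and exceeded the genome-wide one over 37.7% of the bases. In the bins from -150 to -101 bp it averaged 3.29 reads, beside 19.7 ChIP reads. A gap of 4 bp just under the cutoff divided the region into runs of 56 bp, with a highest score of 7.96, and 322 bp, which holds the summit.

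**Figure D1:**
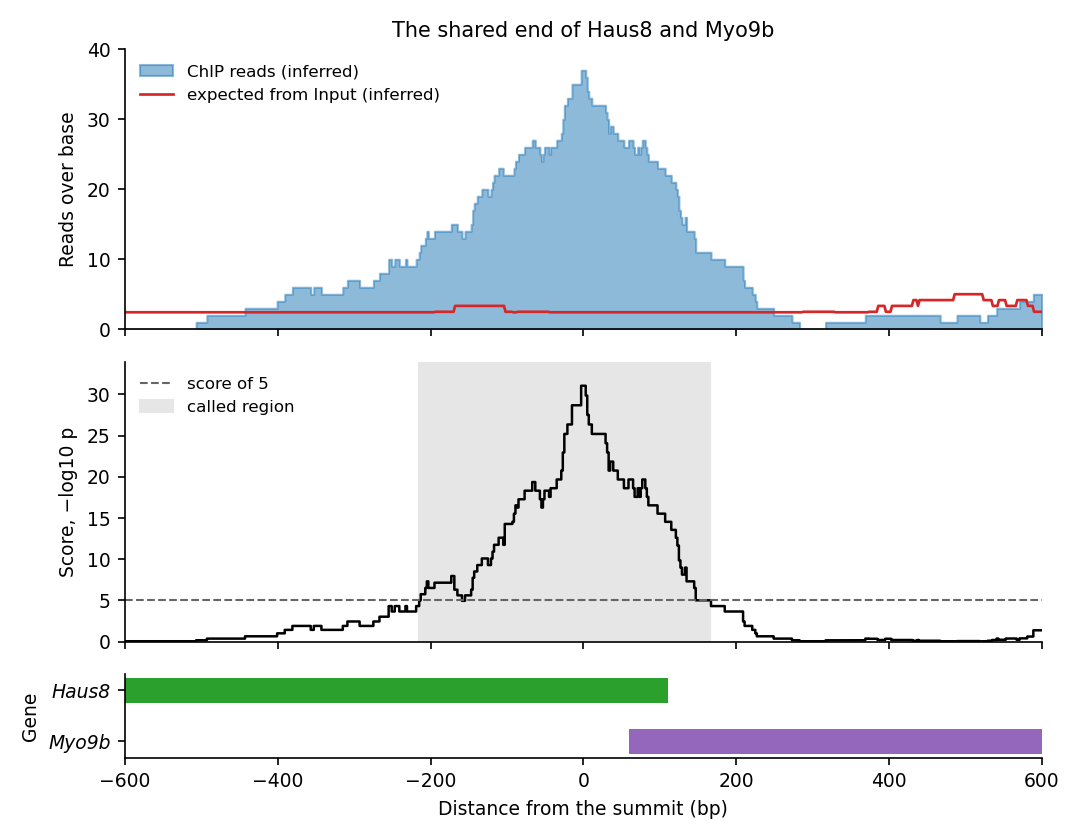
Inferred ChIP reads and expected reads (top), deposited score (middle) and gene extents (bottom) within 600 bp of the summit, with distance in bp on the x axis. The pileup peaks at 37 reads against 2.43 expected inside Haus8, 60 bp before Myo9b begins, and the called region (grey) covers the 52 bp that the genes share.

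The signal was narrow. From 1 to 10 kb below the region, inside Haus8, the inferred pileup averaged 2.34 reads with a highest score of 4.20, and from 1 to 10 kb above it, inside Myo9b, the average was 1.80 reads with a highest score of 1.42. The other end of Haus8 had a highest score of 1.90 and the other end of Myo9b one of 2.44. Beyond 1 kb from the region, Haus8 reached 4.31 at 71261400 (10 reads) and Myo9b reached 5.01 at 71298747 (11 reads), which is 26065 bp from the region. Myo9b had 3 such short runs at or above the cutoff inside it, of 7, 8 and 12 bp, and none was long enough to be called. Outside Haus8, 4 runs of 1 to 28 bp at 5.01 lay between 71248656 and 71248771, about 2 kb before its lower end. The mean score inside Haus8 was 0.674, and 0.432 when the bases from 1 kb before the region onward were left out. That of Myo9b was 0.337 over the whole gene, close to the median of 0.339 over all protein-coding genes.

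The other subunits of the microtubule-binding module gave lower promoter scores. Haus7 (gene 73738) lies on chromosome X from 73437315 to 73459029. Its lower end had a score of 5.75 at 73437298, 17 bp outside the gene, and its higher end had 1.90. The score corresponds to 12 reads (exact Poisson 95% interval 6.20 to 21.0) against 2.43 expected. This run at or above the cutoff spans 69 bp, from 73437292 to 73437360, and so crosses the end of the gene. It was too short to count as a called region, and no region was called anywhere on chromosome X.

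Haus2 (gene 66296, chromosome 2 from 120609382 to 120621560) had a promoter score of 3.02 from 8 reads (interval 3.45 to 15.8), 173 bp inside its lower end. Its higher end scored 0.64. The highest score near Haus2 was 5.01 at 120604112, over 2 bp and 5270 bp outside its lower end. That place is beside the lower end of the neighbouring Lrrc57, which overlaps Haus2 by 127 bp and had a promoter score of 5.01 itself. HAUS6 is the subunit that contacts NEDD1, the adaptor of the γ-tubulin ring complex. Haus6 (gene 230376, chromosome 4 from 86578855 to 86612075) had a promoter score of 1.00 from 4 reads (interval 1.09 to 10.2). Inside this gene the highest score was 3.02, 10999 bp from its higher end. Across all of chromosome 4 the median promoter score was 1.42, the lowest among the chromosomes that hold these genes, against 2.44 for chromosomes 2, 5 and X. The part of this chromosome level in the value of Haus6 was not tested.

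Of the coiled-coil module, no gene reached the cutoff near its ends. Haus1 (gene 225745, chromosome 18 from 77757277 to 77773885) scored 1.42 from 5 reads (interval 1.62 to 11.7), 449 bp from its lower end. Its higher end, which overlaps Atp5a1 by 118 bp, scored 0.64. ATP5A1 is a subunit of mitochondrial ATP synthase. Haus3 (gene 231123, chromosome 5 from 34153896 to 34169424) scored 3.02 at its higher end and 1.90 at its lower end. The highest score inside Haus3 was 5.01, from 11 reads over 28 bp at 34165513 to 34165540, which is 3898 bp from its higher end. Haus3 lies wholly within Poln, the gene of a DNA polymerase, so a score inside it belongs to both annotations.

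Haus4 (gene 219072, chromosome 14 from 54541785 to 54554989) and Haus5 (gene 71909, chromosome 7 from 30653708 to 30664994) each had a promoter score of 1.00, from 4 reads. Inside both genes the highest score was 2.44. In the 10 kb outside, Haus4 reached 3.65 at 2611 bp above the gene and Haus5 reached 3.65 at 3442 bp above it, each from 9 reads. Haus4, Haus5 and Haus6 therefore had the same lowest promoter score of the 9 genes, equal to or below that of 97.2% of protein-coding genes. The Poisson intervals of Haus1 to Haus7 overlap one another. Each was taken at the highest base near the gene's ends, so it does not measure the error of the promoter score. The order among these 7 genes was not tested.

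**Figure D2:**
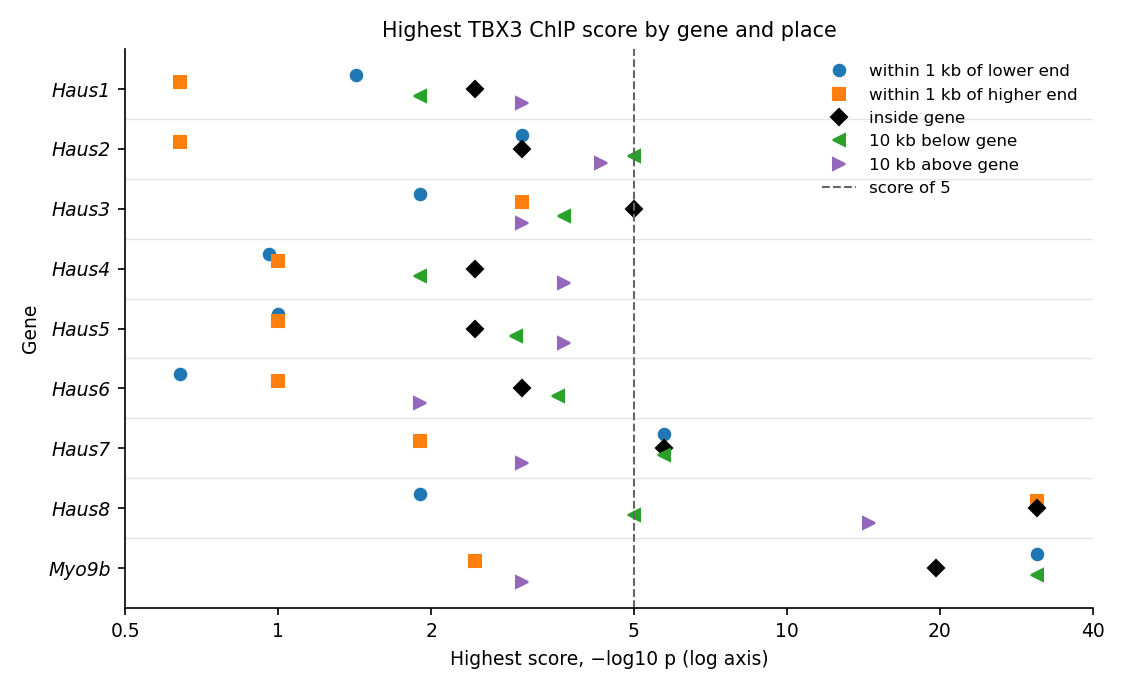
Highest score (x axis, −log10 p, log scale) of each gene (y axis) within 1 kb of its lower-coordinate and higher-coordinate end, inside it, and in 10 kb on each side. Haus8 and Myo9b reach 31.06 at the end they share, Haus7 reaches 5.75 at its lower end, and the ends of Haus1 to Haus6 all lie at 3.02 or below.

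Of the 9 genes, 3 (Haus7, Haus8 and Myo9b) had a promoter score of at least 5, as did 3.60% of all protein-coding genes. Inside the gene, 4 of 9 (Haus3, Haus7, Haus8 and Myo9b) reached 5, as did 13.9% of all. In the 10 kb outside, 4 of 9 (Haus2, Haus7, Haus8 and Myo9b) reached 5, as did 10.3% of all. Haus7 enters each of these counts through the same run of 69 bp that crosses its lower end. The values of Haus3 inside and Haus2 outside were 5.01. The Poisson p adjusted over all bases (Benjamini-Hochberg) reached 0.05 only at a score of 5.46, above both. A called region lay within 1 kb of an end of Haus8 and Myo9b, and of 0.311% of all protein-coding genes. The same pair had one inside or within 10 kb, as did 0.672% of all. Haus8 and Myo9b are both counted for a single summit, which was the reason for choosing them, so nothing is read from these shares. Without them, 1 of 7 augmin genes had a promoter score of at least 5 and none had a called region.

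The median promoter score of Haus1 to Haus7 was 1.42, against 2.44 over all protein-coding genes, and 4 of the 7 were below the latter. In windows of 2 kb the medians were 2.44 and 2.62. The highest score inside these 7 genes had a median of 3.02, equal to that of all protein-coding genes. The mean score inside the gene gave a different order. It was below the median of all genes, 0.339, in 2 of the 7 (Haus5 at 0.271 and Haus6 at 0.253), and it was highest in Haus2 at 0.442 and Haus3 at 0.425. The share of bases inside the gene with no inferred read ran from 29.6% in Haus2 to 44.3% in Haus6, and was 32.0% in Haus8 and 37.5% in Myo9b.

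**Figure D3:**
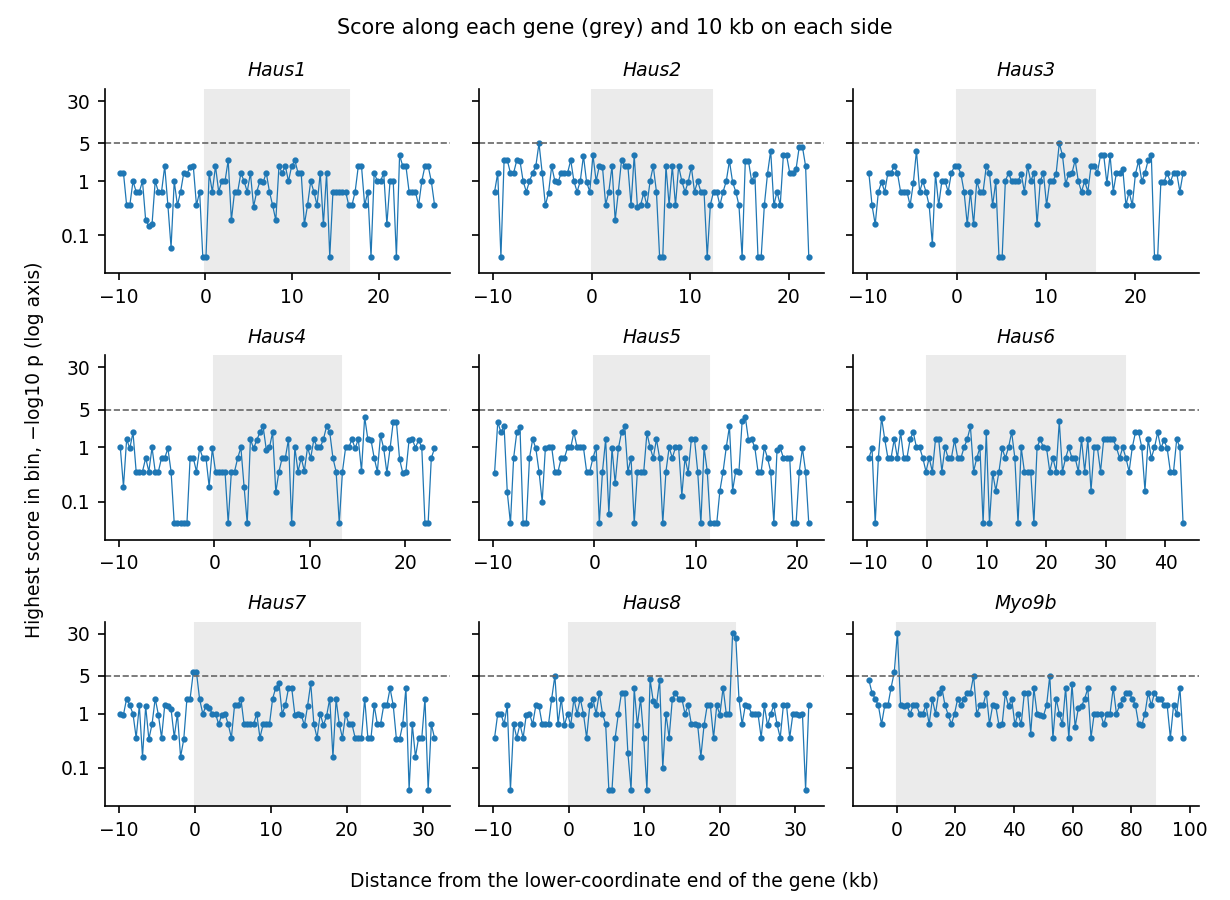
Highest score in each of 100 bins (y axis, −log10 p, log scale) along each gene (grey) and 10 kb on each side, by distance from the lower end in kb, with the cutoff of 5 dashed. A high summit stands only in the panels of Haus8 and Myo9b, at the same place, and the points of Haus1, Haus4, Haus5 and Haus6 all lie below 5.

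Haus8 and Myo9b belong to a group of 5 protein-coding genes (0.0228%) whose promoter scores equal or exceed 31.06. The genes next above were Lrig1 at 43.58, a regulator of growth factor receptors, and Mkks and Slx4ip at 32.27, which share a summit. Next below were 2810408A11Rik and Neurl4 at 29.87 and BC049762 at 28.69, a value that Clk4, which overlaps BC049762, shares. Against 2.43 expected, 36, 37 and 38 reads give 29.87, 31.06 and 32.27. These neighbours in the order, other than Lrig1, thus differ from Haus8 by amounts equal to 1 or a few reads. Such amounts are within the counting error of its pileup, 26.1 to 51.0 reads. Lrig1 stands further off, above the 34.71 that 40 reads give, and whether it exceeds that error was not tested. Haus7 ranked far below, with 464 genes (2.12%) as high. Haus2 and Haus3 stood above the median of all genes, with 29.0% of genes as high, and Haus1 was exceeded or equalled by 91.1%. For reference, the promoter score of E2f7 was 22.79 and that of E2f8 was 15.53. At the genome-wide expected level 30 reads give 22.96, a number of reads inside the interval of the Haus8 summit. The differences of E2f7 and E2f8 from Haus8 were not tested.

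**Figure D4:**
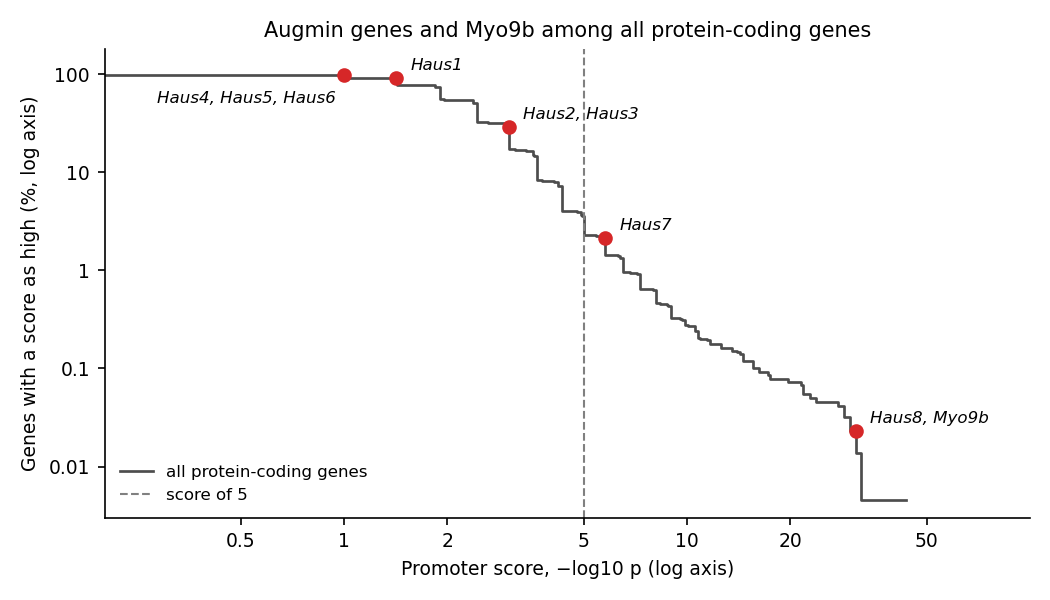
Percent of protein-coding genes (y axis, log scale) with a promoter score at least as high as the value on the x axis (−log10 p, log scale), with the 9 genes as red points. Haus8 and Myo9b lie in the far tail at 0.0228%, Haus7 at 2.12%, and Haus4, Haus5 and Haus6 at 97.2%.

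Haus8 and Myo9b are one of 956 pairs of protein-coding genes that overlap at their ends by under 1 kb. Without strand, pairs that overlap where transcription starts were not told apart from pairs that overlap where it stops. A score of at least 5 lay within 1 kb of the overlap in 3.35% of these pairs, and a called region in 0.523%, which is 5 pairs. Among these 5, Mkks and Slx4ip came first at 32.27, followed by Haus8 and Myo9b at 31.06, BC049762 and Clk4 at 28.69, Mrpl48 and Rab6a at 15.53, and Pradc1 and Cct7 at 7.31. The median over all pairs was 1.90. Augmin genes also form 2 other such pairs, with no called region. Lrrc57 and Haus2 scored 3.02, and Haus1 and Atp5a1 scored 0.64. Of the 3 augmin genes with such an overlap, Haus1, Haus2 and Haus8, Haus8 alone reached a score of 5 there. Haus8 was picked for the summit at this overlap, so this contrast and its place among the pairs describe the choice.

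The nearest protein-coding neighbours of Haus1 to Haus7 had promoter scores of at most 5.01. Lrrc57 beside Haus2 and Ajuba beside Haus4, which encodes a LIM domain protein, both stood at 5.01. Prmt5, an arginine methyltransferase gene on the other side of Haus4, and 8030462N17Rik beside Haus1 were at 3.65. Poln, Stard9 beside Haus2 and Bgn beside Haus7, the gene of the matrix proteoglycan biglycan, were at 3.02. Rraga, a GTPase gene of the mTORC1 pathway, and Plin2, a lipid droplet coat gene, flank Haus6 and were both at 1.90, as was Atp5a1. Rbm42 at 1.84 and 2200002J24Rik at 1.42 flank Haus5, and Trex2 at 1.42 lies below Haus7. On chromosome 8, Gm7827 below Haus8 was at 3.79 and Use1 above Myo9b at 3.02. The nearest called region was 1945697 bp away from Haus1 and 8321831 bp from Haus2. It was more than 10 Mb away from Haus3, Haus4, Haus5 and Haus6.

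Genes that work with augmin, and other myosins, were described by the same score. Of the 10 genes of the γ-tubulin ring complex, which augmin recruits, none had a promoter score of at least 5, with Tubgcp3 highest at 3.65 and Tubg1, one of the γ-tubulin genes, lowest at 1.84. Their median was 2.14. Of 16 other spindle assembly factors, 1 reached 5. This was Nek9, a mitotic kinase that activates NEK6 and NEK7, with a score of 12.60 and a called region. The lowest of that list was Rcc1, the exchange factor of Ran, at 0.64, and the median was 2.44. None of 23 other unconventional myosin genes reached 5. They had a median of 1.90, with Myo19, a myosin of mitochondria, highest at 4.31 and Myo5c lowest at 0.64. The paralog Myo9a scored 1.90. A score of at least 3 was reached by 1 of 10 genes of the γ-tubulin ring complex, 7 of 16 spindle assembly factors and 5 of 23 myosins, and by 29.1% of all protein-coding genes. These counts compare with the 3.60% of all protein-coding genes at or above 5 and with their median of 2.44.

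**Figure D5:**
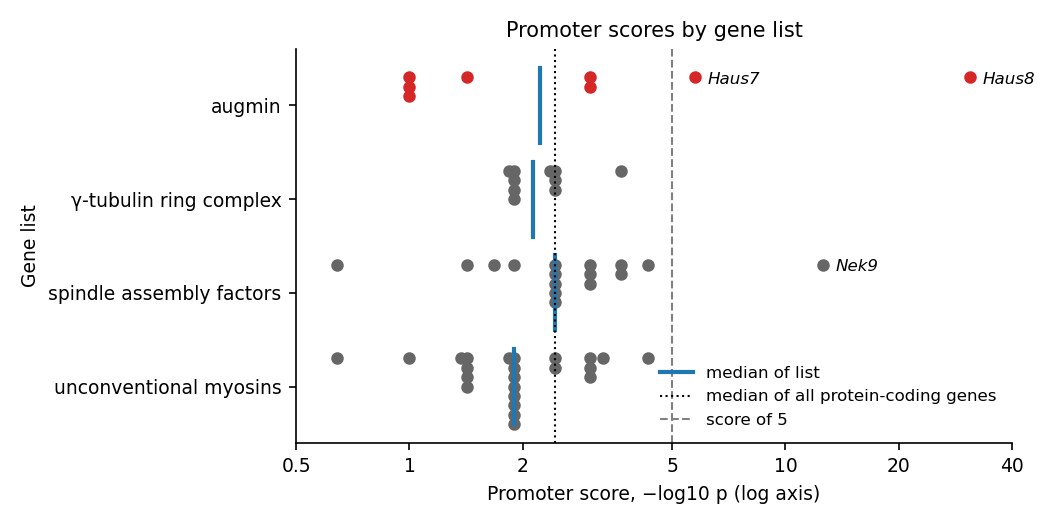
Promoter score (x axis, −log10 p, log scale) of every gene in 4 lists (y axis), with the median of each list in blue, the median of all protein-coding genes dotted and the score of 5 dashed. Beyond the dashed line stand Haus7, Haus8 and Nek9, and no gene of the γ-tubulin ring complex or the other unconventional myosins.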

How the data were processed

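The authors aligned the libraries with Bowtie 2, used Samtools for sorting and made the track with MACS2. Per the labels the build is mm10. Versions, duplicate handling and which libraries entered the track are not given in the sources used here. The deposited values are −log10 p-values per base, 110667813 intervals over 2727620324 bases, with 0 other columns of per-sample values. The depth per library is unknown. No sequence or strand was used here, so motif searches and start-only windows were not run, and both ends of each gene were searched.

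Reads were inferred as a whole number of 150 bp reads, and the expected level as the genome-wide or an Input level. The pair had to give each score under a Poisson distribution, with the fewest changes along the locus. Region calling and this inference were tested on simulated data. Intervals are exact Poisson, take reads as independent and cover counting error only. The genes, the lists and the naming rule (all 9 genes, nearest neighbours, 3 genes on each side of Haus8 by promoter score, list members reaching 5 or else the extremes, and pairs with a called region or a member) were chosen with earlier results of these data known. Rcc1, Myo9a, E2f7 and E2f8 were named in addition to the naming rule. Alternatives were other cutoffs, windows, lengths and gaps. The tools were scipy 1.17.1, numpy 2.4.6, matplotlib 3.10.9, pandas 2.3.3 and Python 3.11.15.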

Additional observations from a re-analysis of the deposited data

How the results depend on the processing

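The region at the shared end of Haus8 and Myo9b was called at every cutoff, minimum length, gap and distance tried. No other was called within 1 kb of an end, inside or within 10 kb of the 9 genes. The genes were picked with this summit known, so its persistence describes the choice. At a cutoff of 3, a region lay within 1 kb of an end of 1.14% of all protein-coding genes. The share was 0.0731% at a cutoff of 10 and 0.909% at a minimum length of 100 bp. Inside or within 10 kb the shares were 3.01%, 0.146% and 2.56%. Of 28 recomputed values 7 moved, and the other 21 were unchanged or, for counts, within 1.5 times. Most of these 21 concern the summit for which the genes were picked, so the tally largely describes that choice. With a cutoff of 3 in place of 5, 5 genes passed, with Haus2 and Haus3 added, as did 29.1% of all protein-coding genes. With a cutoff of 10 Haus7 was lost, leaving 2 genes, Haus8 and Myo9b, beside 0.279% of all protein-coding genes. Dividing inferred reads and expected level by 2, as if both mates of every pair had been counted, gave 18 reads and a score of 15.96 at the Haus8 summit. The share of genes as high as Haus8 was 0.0640% by the mean score within 1 kb of a gene end, at the end where it is higher. By the highest score it was 0.0100% among all 49939 annotated genes. By the mean score inside the gene, 1.74% of protein-coding genes were as high as Haus8. The median of Haus1 to Haus7 was 2.44 in windows of 2 kb, where that of all genes was 2.62. By the mean score within 1 kb of a gene end it was 0.24, where that of all genes was 0.40. The mean score inside the gene differs from this, with 2 of the 7 below the median of all genes. Windows at transcription starts alone were not run. No paired analysis was possible because the track holds no value per library, and leaving out a library could not be done for the same reason.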

Other observations

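The expected level from Input reached 5.84 reads at its highest in Haus6 and the 10 kb around it, and 9.84 in Haus1 and Myo9b. At these 9 places of highest expected level, 1 for each gene, the inferred ChIP pileup was 1 to 6 reads and the score was at most 0.20. Inside the gene, the share of bases with an expected level above the genome-wide one was lowest in Haus6 at 15.6% and highest in Haus8 at 48.8%. The share of bases with more ChIP reads than expected was 15.0% in Haus6, 29.8% in Haus8 and 32.6% in Haus3, the highest of the 9 genes.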
